A study of Rattus norvegicus with 138 samples.

Results

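The neuronal miRNAs miR-124-3p, miR-9a-5p and miR-128-3p were followed in rat serum as 3 of the 471 mature miRNAs in a count table. They were chosen by name, as miRNAs known from the nervous system. The rule used no value of the table, but earlier results of these data were known when it was set. All 3 are present. Small RNA was sequenced from serum of male Sprague-Dawley rats that were 3 months old when they received metal pellets in the gastrocnemius muscle, 2 pellets in each leg. The pellets were of lead (Pb), aluminium (Al), iron (Fe), cobalt (Co), copper (Cu), nickel (Ni), depleted uranium (DU), tungsten (W) or tantalum (Ta). Ta is held to be inert in muscle and is the surgical control, so every group compared carried pellets, and no rat without pellets is part of the comparisons. Serum was drawn 1, 3, 6 and 12 mo after surgery. The libraries fall into 35 groups of a metal and a month. Each group has n = 4 apart from the 6 mo groups of Ta and W, which have n = 3, and a Ni group at 12 mo was not analysed here. The series text gives 8 rats per group with repeated bleeding, and sample numbers 1 to 4 are not tied to rats, so the same animals may recur across months and each p below measures the spread between samples.

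miR-124 is the most characteristic miRNA of mature neurons and helps to silence non-neuronal genes there. miR-9 is made in neural progenitors and neurons, and both strands of its hairpin are used. miR-128 is enriched in brain, where it restrains neuronal excitability, but it is also made in blood-forming and other cells. Lead and aluminium are the metals of the series best known for toxicity to the nervous system, and they are described first. miRNAs reach serum in vesicles and bound to proteins, and serum is not a tissue: release from fewer cells and less release per cell cannot be told apart in these data, nor can the organ of origin.

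Mature sequences were taken from RefSeq (rat assembly GRCr8), which held an entry for 434 of the 471 miRNAs of the table. The strands of miR-9 and miR-128 are shown because they set which reads can be told apart in the counts. Each is written 5′ to 3′, with the seed (bases 2 to 8, which pair with targets) in capitals.
miR-9a-5p: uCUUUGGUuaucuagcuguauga
miR-9a-3p: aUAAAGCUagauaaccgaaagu
miR-128-3p: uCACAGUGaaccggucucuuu
miR-128-1-5p: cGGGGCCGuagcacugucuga
miR-128-2-5p: gGGGGCCGaugcacuguaaga
The 23-base miR-9a-5p is identical at 3 loci, and the 21-base miR-128-3p at 2 loci. The passenger strands of the 2 miR-128 hairpins differ from each other and share a seed, so they report on each locus separately. Among the 434 miRNAs with an entry, no other has the seed of miR-9a-5p or that of miR-128-3p.

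The hairpins show where these strands come from; the mature strands are in capitals, and positions are on GRCr8, whereas the reads were assigned on Rnor_6.0. Mir128-1 lies at chr13:42251884-42251965 on the plus strand inside the protein-coding gene R3hdm1, and Mir128-2 at chr8:120963795-120963878 on the minus strand inside the protein-coding gene Arpp21.
Mir128-1: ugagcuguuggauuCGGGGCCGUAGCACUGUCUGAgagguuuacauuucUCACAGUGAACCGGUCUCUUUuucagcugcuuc
Mir128-2: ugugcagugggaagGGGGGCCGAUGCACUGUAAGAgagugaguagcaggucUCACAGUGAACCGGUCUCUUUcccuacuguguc
Mir9-1 lies at chr2:175974971-175975059, Mir9-2 at chr2:15933292-15933378 and Mir9-3 at chr1:142849400-142849489, all on the plus strand. Mir9-2 overlaps its host gene Mir9-2hg, and Mir9-3 the long noncoding RNA Mir9-3hg. miR-124 also has 3 loci (Mir124-1, Mir124-2 and Mir124-3). One run of 8 bases of miR-128-3p, shown in capitals, also stands in the more abundant miR-27b-3p, shifted by 1 base.
miR-128-3p: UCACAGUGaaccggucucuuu
miR-27b-3p: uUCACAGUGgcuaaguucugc
The rest of both sequences differs, and miR-27b-3p had a median of 6993 CPM (counts of a miRNA per 1000000 counts of its library). The same run also stands in miR-27a-3p (median 1346 CPM) and in miR-101a-5p (median 0 CPM).

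The 3 miRNAs were present in serum at very different frequencies. miR-128-3p was a regular constituent: it had a count in all but 10 libraries, 870514 counts in all, which is 0.597% of all counts and rank 22 of 471. Where detected its median level was 4353 CPM, and its median rank within a library was 28.5. miR-124-3p had a count in 22 libraries and miR-9a-5p in 16, with medians of 35.6 and 99.7 CPM in the libraries that held them. Most counts of these rare miRNAs sat in a few libraries. The top 3 libraries held 81.9% of the 8127 counts of miR-124-3p and 90.2% of the 11085 counts of miR-9a-5p, against 15.8% for miR-128-3p.

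The counts themselves carry a trace of how they were made. Every count of miR-124-3p, miR-9a-5p and miR-9a-3p is a multiple of 3, the number of their genomic loci. miR-128-3p, with 2 loci, has an odd count in 66 libraries. Among 355 miRNAs with a count in 5 or more libraries, 34 have a divisor above 1. The way these reads were counted is not given in the sources used here. For the rare members, 1 counting event is taken as worth 3 counts, and their intervals and limits below rest on counts divided by 3. Their CPM are given on the counts as deposited; if each read was counted once per locus, these CPM are 3 times too high, also where they stand beside miR-128-3p. They cover counting error only.

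Libraries held 518 to 6406599 counts (median 685384.5) and a median of 177 miRNAs. The 3 mo libraries were the shallowest, with a median of 286094 counts and 99.5 miRNAs. There were 6 libraries under 20000 counts, 4 of them at 3 mo, and they are called near-empty below. Levels were also summed over lists of marker miRNAs. The platelet and leukocyte list (7 miRNAs) had a median of 142373 CPM per library and the liver list (4 in the table) 100725 CPM. The skeletal muscle list (6) had 861 CPM and the brain and neuron list (36) 4922 CPM. Within the brain and neuron list, miR-128-3p alone had a median of 3779 CPM over all libraries.

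miR-128-3p levels varied widely between libraries of the same group. Among the 27 groups in which every library held it, the highest library exceeded the lowest by a median of 5.91-fold, from 1.11-fold in Ta at 6 mo to 23.3-fold in W at 1 mo. Nonzero values ran from 225.2 to 25172 CPM. Of the 10 libraries with no count, 6 were the near-empty ones. The other 4 were Co replicate 1 at 3 mo and Pb replicates 2, 3 and 4 at 6 mo.

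**Figure D1:**
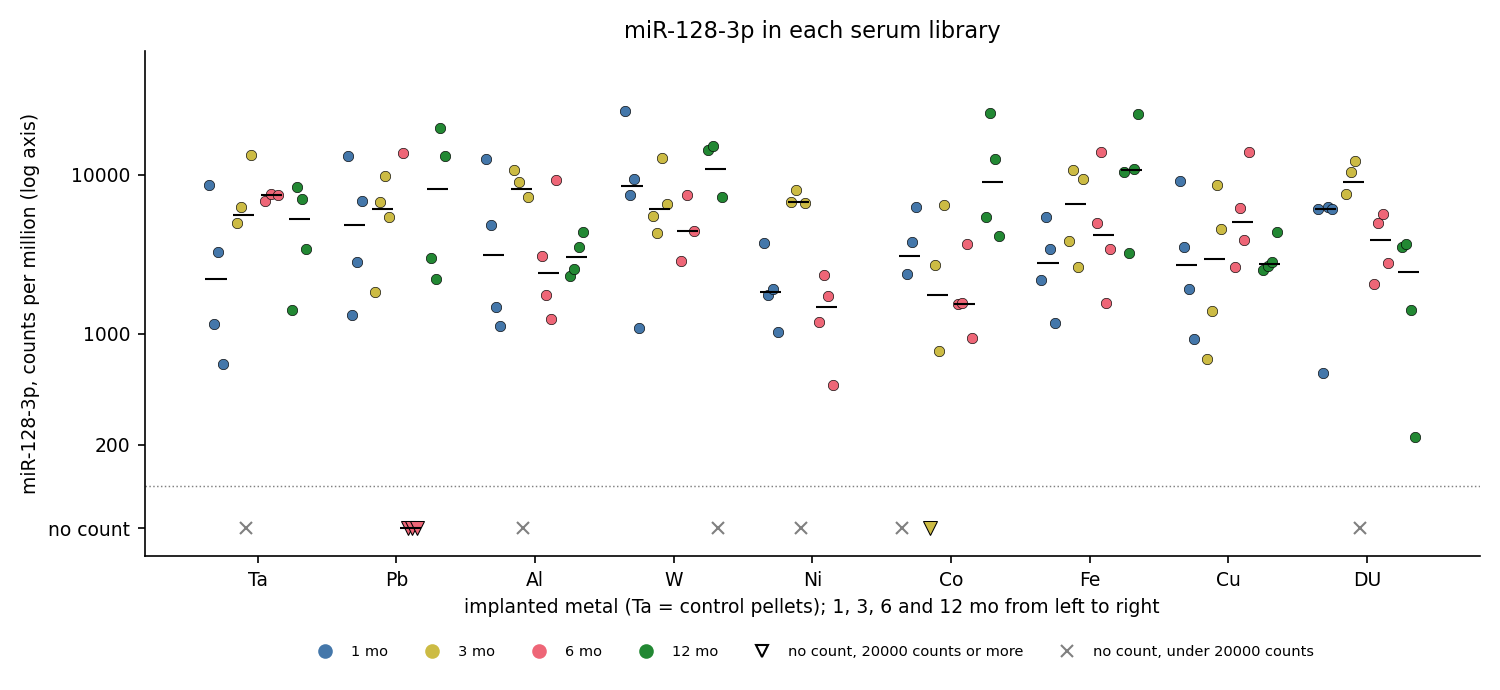
miR-128-3p in CPM (log axis) in each library, by implanted metal and month; short bars are group medians, triangles are libraries of 20000 counts or more with no count, and crosses are near-empty libraries. The 3 triangles under Pb at 6 mo stand apart from the Ta libraries of that month, which lie between 6858 and 7585 CPM.

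In Pb rats miR-128-3p was present in all libraries at 1, 3 and 12 mo and missing from 3 of 4 at 6 mo. At 1 mo the Pb libraries held 13066, 1311, 2807 and 6838 CPM, and the Ta libraries 8600, 1145, 3275 and 647 CPM. The groups overlapped, and the log2 difference was 1.44 ± 0.93 (SE, edgeR adjusted p = 0.519). At 3 mo the Pb values were 1827, 6683, 9794 and 5424 CPM, against 4932, 6280, 0 and 13338 CPM in Ta, where the 0 belongs to a near-empty library. The groups overlapped again, at a log2 difference of -0.10 ± 1.32 (SE, edgeR adjusted p = 1). At 12 mo Pb libraries held 3006, 2206, 19477 and 13156 CPM and Ta libraries 1404, 8313, 7062 and 3409 CPM. Both groups were spread over several-fold, with 2 Pb libraries above every Ta library, and the log2 difference was 0.87 ± 0.82 (SE, edgeR adjusted p = 0.718).

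At 6 mo the Pb libraries split. Replicate 1 held 13730 CPM (11156 counts), and replicates 2, 3 and 4 held 0 counts of 156881, 407899 and 358805. A count of 0 allows up to 19.1, 7.35 and 8.36 CPM in these libraries. The 3 Ta libraries at 6 mo held 6858, 7585 and 7493 CPM, or 7312 ± 396 CPM (SD, n = 3). One Pb library was thus above all Ta libraries and 3 were below all of them. With all 4 Pb libraries the log2 difference was -1.49 ± 1.44 (SE, edgeR adjusted p = 0.568). The lack of a call rests on replicate 1. Without it miR-128-3p passed the threshold (edgeR adjusted p = 3.85e-09), in a fit that called 4.04% of 272 miRNAs. The library left out is the only one of the group with a count, so the p of that fit describes the 3 remaining libraries and not the Pb group. The mean of these 3 libraries at their limit, 11.6 CPM, is at least 630-fold lower than the Ta mean.

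The Pb libraries at 6 mo were poorer in miRNAs than their controls: replicates 2, 3 and 4 held 70 to 96 miRNAs and replicate 1 held 88, against 168 to 223 in Ta. Low complexity thus moved with the group, in the Pb library with miR-128-3p as in those without. It was also seen in DU replicates 3 and 4 at 6 mo, with 86 and 77 miRNAs beside 5667 and 2785 CPM of miR-128-3p. The part of low complexity in the zeros was not tested. Of 145 miRNAs with a count in every Ta library at 6 mo, 35 had none in all 3 of these Pb libraries. Among the 43 that reached 1000 CPM in every Ta library, 34 had a count in each of the 3 Pb libraries, 7 were at 0 in one, 1 was at 0 in 2 of them, and miR-128-3p alone was at 0 in all 3. The levels of these 43 miRNAs are plotted for Pb against Ta. These libraries were singled out by their zeros, so the counts are a description.

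**Figure D2:**
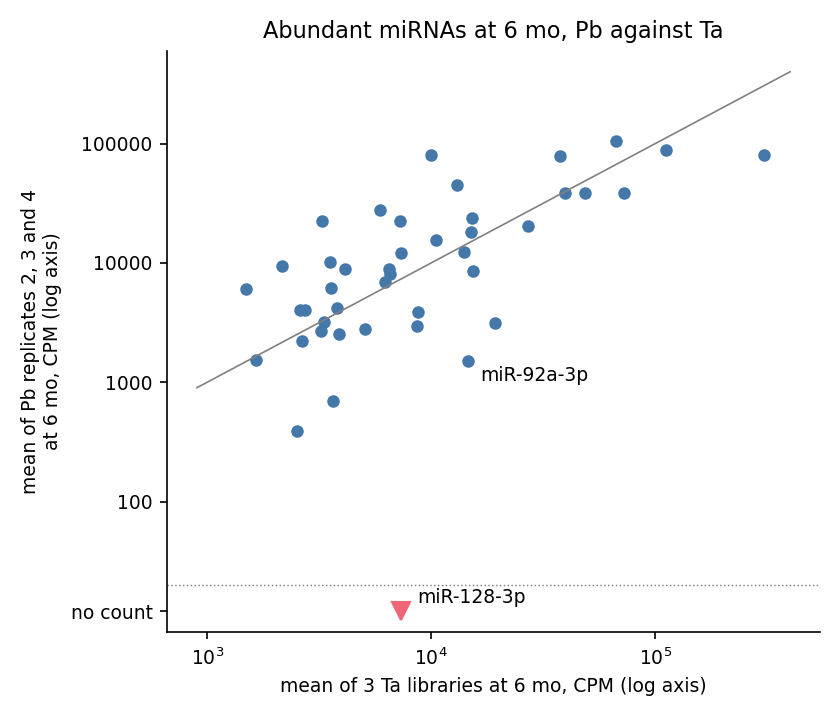
The 43 miRNAs at 1000 CPM or more in every Ta library at 6 mo: mean of the 3 Ta libraries (x, CPM, log axis) against the mean of Pb replicates 2, 3 and 4 (y, CPM, log axis), with the line of equality. miR-128-3p (triangle) has no count in these Pb libraries; miR-92a-3p lies at 14559 CPM in Ta and 1520 CPM in Pb.

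In Al rats miR-128-3p was present in every library but a near-empty one and overlapped Ta at each month. At 1 mo the Al libraries held 12513, 4810, 1465 and 1111 CPM, and the log2 difference from Ta was 0.77 ± 0.92 (SE, edgeR adjusted p = 1). At 3 mo they held 10714, 9032, 0 and 7189 CPM, the 0 being a near-empty library, with a difference of 0.31 ± 1.33 (SE, edgeR adjusted p = 0.997). At 6 mo they held 3072, 1738, 1231 and 9246 CPM, 3 of them below every Ta library, and the log2 difference was -0.44 ± 1.43 (SE, edgeR adjusted p = 1). The 12 mo values were the tightest, at 2318, 2554, 3515 and 4373 CPM, with a log2 difference of -0.32 ± 0.81 (SE, edgeR adjusted p = 0.912). Averaged over the 4 time points, miR-128-3p differed from Ta by 0.15 ± 0.60 on the log2 scale in Pb and by -0.02 ± 0.60 in Al (SE, edgeR adjusted p = 1 for both).

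Neither metal gave a call for any of the 3 miRNAs in edgeR. For Pb, 8 tests of the members at a time point gave 0 calls and none at an unadjusted p under 0.05. For Al, 8 tests gave 0 calls and 4 at an unadjusted p under 0.05, all of miR-124-3p or miR-9a-5p (3 lower and 1 higher than Ta). In each of those 4 tests, neither Al nor Ta had a count in more than 1 library. Over all miRNAs, 14.8% of the edgeR tests of Pb and 10.4% of those of Al at a time point had an unadjusted p under 0.05. DESeq2 called 0 in both sets and had 0 at an unadjusted p under 0.05. Over all miRNAs tested, edgeR called 0.37% for Pb at 1 mo, 0.0% at 3 mo, 2.94% at 6 mo, 0.0% at 12 mo and 4.38% in the average. For Al it called 0.0% at each month and in the average. A lack of calls does not show equal levels: the SE of 0.81 to 1.44 log2 units leaves differences of several-fold undetectable at any given month.

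The other metals gave no call for miR-128-3p either, and the widest gaps from Ta were at 6 mo. Ni libraries held 1191, 2338, 1733 and 474 CPM there, all below the Ta libraries, and their mean was 5.10-fold lower (log2 difference -2.06 ± 1.45 SE, edgeR adjusted p = 0.823). Co libraries held 1532, 1562, 3686 and 946 CPM, also all below Ta, with a log2 difference of -1.77 ± 1.44 (SE, edgeR adjusted p = 1). DU libraries held 2048, 4985, 5667 and 2785 CPM, again below every Ta library, at -0.81 ± 1.43 (SE, edgeR adjusted p = 1). Every library lay below every Ta library for 6.99% of 272 miRNAs in Ni, 4.78% in Co and 12.5% in DU. The Ta group at 6 mo is shared by these comparisons and has 3 libraries within 1.11-fold of each other, the narrowest spread of any group. In no other comparison at 1 time point did the libraries of a metal lie wholly above or below Ta.

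**Figure D3:**
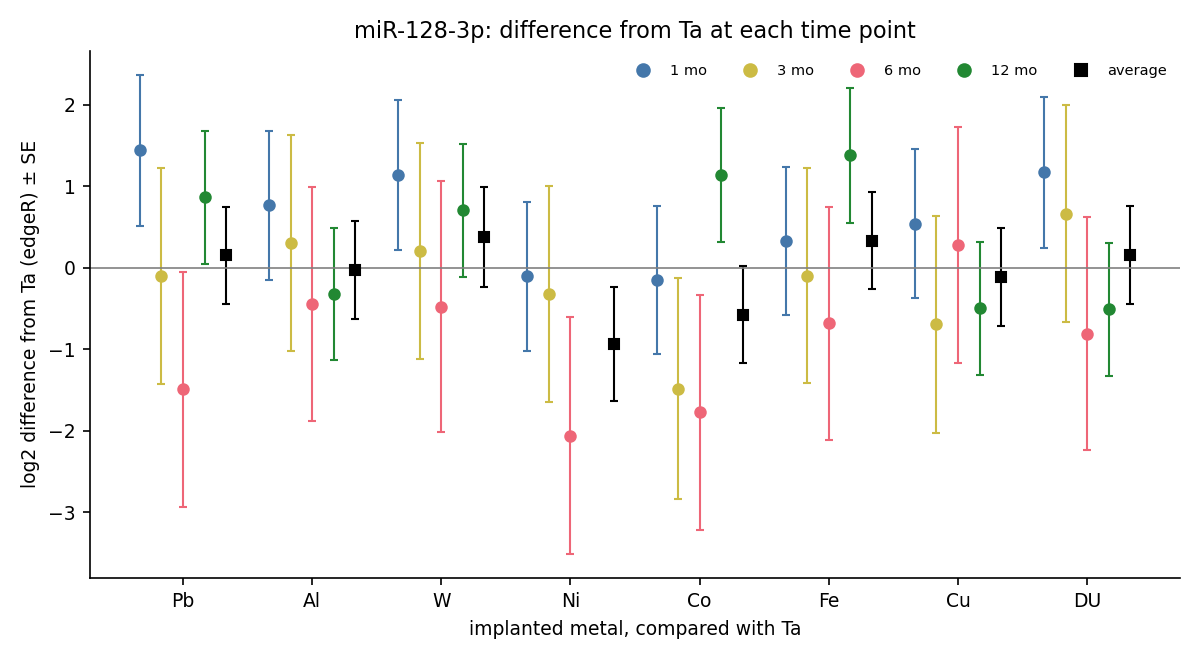
Fitted log2 difference of miR-128-3p from Ta (edgeR, points) with its SE (bars), for each of 8 metals at 1, 3, 6 and 12 mo and averaged over months (squares). The lowest point is Ni at 6 mo (-2.06) and the highest Pb at 1 mo (1.44); none passed the adjusted threshold.

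At the other end, miR-128-3p reached 10382, 3234, 10890 and 23956 CPM in Fe at 12 mo, and 5443, 24258, 12588 and 4103 CPM in Co at 12 mo. Both groups overlapped Ta, with log2 differences of 1.38 ± 0.83 (SE, edgeR adjusted p = 0.620) for Fe and 1.14 ± 0.82 (SE, edgeR adjusted p = 0.867) for Co. W at 1 mo held the highest library of all, at 25172, 7461, 9432 and 1079 CPM (log2 difference 1.14 ± 0.92 SE, edgeR adjusted p = 0.743). Cu stayed between 691 and 13825 CPM over its 16 libraries. For these 6 metals, 47 tests of the members at a time point gave 0 calls in edgeR and 11 at an unadjusted p under 0.05, none of them of miR-128-3p, 10 lower and 1 higher than Ta; DESeq2 gave 0 and 0. Over all miRNAs 9.77% of the edgeR tests in these comparisons had an unadjusted p under 0.05 (1.47% to 25.7% by comparison). The members share the Ta libraries in these tests, and all counts of Ta in miR-124-3p and miR-9a-5p at 1 mo lie in 1 library. Over all miRNAs edgeR called 0.37% for Fe at 1 mo, 1.2% for Co at 3 mo, 0.446% for W at 12 mo, 0.446% for DU at 12 mo, and 0.0% in the remaining comparisons of these metals at 1 time point.

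Ordered by median over the libraries of a group, miR-128-3p ran from 10787 CPM in W at 12 mo, 10636 CPM in Fe at 12 mo and 9016 CPM in Co at 12 mo down to 1547 CPM in Co at 6 mo, 1462 CPM in Ni at 6 mo and 0 CPM in Pb at 6 mo. Ta groups stood at place 8 (6 mo), 14 (3 mo), 15 (12 mo) and 30 (1 mo) of 35. All 34 pairs of neighbours in this order overlap in the range of their libraries. Averaged over months, the other metals lay between -0.93 ± 0.70 (Ni) and 0.37 ± 0.61 (W) on the log2 scale, with 0 calls of the members in edgeR over 18 tests and 1 at an unadjusted p under 0.05, against 10% of the tests over all miRNAs. DESeq2 called 1 of these, miR-9a-5p in DU, which had no count in any DU library. edgeR called 0.0% of all miRNAs in the averages of W, Ni and Co, 0.312% in Fe, 0.312% in Cu and 3.75% in DU.

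Between months, the differences of miR-128-3p were within their errors. The median over all libraries was 3351 CPM at 1 mo, 6366 CPM at 3 mo, 2967 CPM at 6 mo and 3880 CPM at 12 mo. Over the 8 metals sampled at every month, Ta among them, the log2 difference was -0.18 ± 0.41 for 3 against 1 mo, 0.09 ± 0.42 for 6 against 3 mo, 0.37 ± 0.42 for 12 against 6 mo and 0.27 ± 0.41 for 12 against 1 mo (SE). None was called in edgeR, with 0 of 12 member tests at an unadjusted p under 0.05, and DESeq2 had 0 calls and 1 at an unadjusted p under 0.05. The whole table moved far more: edgeR called 43.8% of 320 miRNAs for 3 against 1 mo, 18.8% for 6 against 3 mo, 9.06% for 12 against 6 mo and 11.6% for 12 against 1 mo. Month cannot be told apart in these data from when the libraries were made. Whether the difference from Ta changed with time was tested for each metal, and the members gave 0 calls in 24 tests (7 at an unadjusted p under 0.05 in edgeR, 0 in DESeq2, which also called 0). Over all miRNAs 15.6% of these edgeR tests had an unadjusted p under 0.05 (9.06% to 23.1% by metal). The smallest adjusted p for miR-128-3p was 0.567, in Co. The shares called over all miRNAs were 4.06% for Pb, 0.938% for Al, 1.25% for W, 0.625% for Ni, 2.19% for Co, 0.625% for Fe, 1.25% for Cu and 2.19% for DU.

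miR-124-3p appeared in 3 of 16 Pb libraries, 1 of 16 Al libraries and 2 of 15 Ta libraries. The Pb libraries were replicate 1 at 1 mo with 162 counts (43.3 CPM, exact 95% interval 32.5 to 56.5), replicate 3 at 1 mo with 81 counts (67.7 CPM, 44.6 to 98.5) and replicate 4 at 12 mo with 195 counts (384 CPM, 296 to 489). The Al library was replicate 4 at 1 mo with 66 counts (27.1 CPM, 17.0 to 41.1). In Ta it was seen at 1 mo in replicate 3 with 1014 counts (2224 CPM) and at 6 mo in replicate 3 with 27 counts (37.5 CPM). The highest control library thus exceeded every Pb and Al library, and the rest of each group had none. Among libraries of 20000 counts or more without a count, the limit had a median of 22.1 CPM in Pb, 9.45 CPM in Al and 16.3 CPM in Ta, taken as 9 counts because these counts come in 3s.

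In the other metals miR-124-3p was detected in 5 of 12 Ni libraries, 3 of 16 Co, 3 of 16 Fe, 2 of 15 W, 2 of 16 Cu and 1 of 16 DU libraries. Its highest value of all was 3558 counts in Fe replicate 3 at 3 mo, 46141 CPM in a library of 77112 counts, where the 3 other libraries of the group had none. By counts, Ni replicate 1 at 6 mo followed with 2085 counts (1255 CPM), beside 152 and 15.7 CPM in replicates 2 and 3. W replicate 1 at 1 mo held 477 counts (519 CPM). All other detections outside Ta and Pb lay at or below 181 CPM. By month the miRNA was found in 12 of 36 libraries at 1 mo, and in 2 of 36 (3 mo), 4 of 34 (6 mo) and 4 of 32 (12 mo).

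miR-9a-5p appeared in 2 of 16 Pb libraries, 1 of 16 Al libraries and 4 of 15 Ta libraries. In Pb these were replicate 1 at 1 mo with 36 counts (9.62 CPM, exact 95% interval 4.97 to 16.8) and replicate 4 at 12 mo with 72 counts (142 CPM, 90.8 to 211), both of which also held miR-124-3p. In Al it was replicate 2 at 6 mo with 213 counts (134 CPM, 105 to 170). In Ta the values were 776 CPM in replicate 3 at 1 mo, 381 CPM in replicate 4 at 3 mo, and 111 and 116 CPM in replicates 1 and 3 at 12 mo. As with miR-124-3p, the highest of these values was in control serum.

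Across the other metals miR-9a-5p was found in 5 of 12 Ni, 2 of 16 Cu, 1 of 15 W and 1 of 16 Co libraries. It had no count in the 16 Fe and the 16 DU libraries, which allows a share of up to 18.75% in each. Ni replicate 1 at 6 mo held 8475 counts (5101 CPM), which is 76.5% of all counts of this miRNA. By counts that library was also the second highest for miR-124-3p. The other Ni libraries with a count held 638 CPM (replicate 2 at 3 mo), 88.3 CPM (replicate 2 at 1 mo), 47.1 CPM and 46.7 CPM (replicates 4 and 2 at 6 mo). No other library of the 6 metals exceeded 64.2 CPM.

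**Figure D4:**
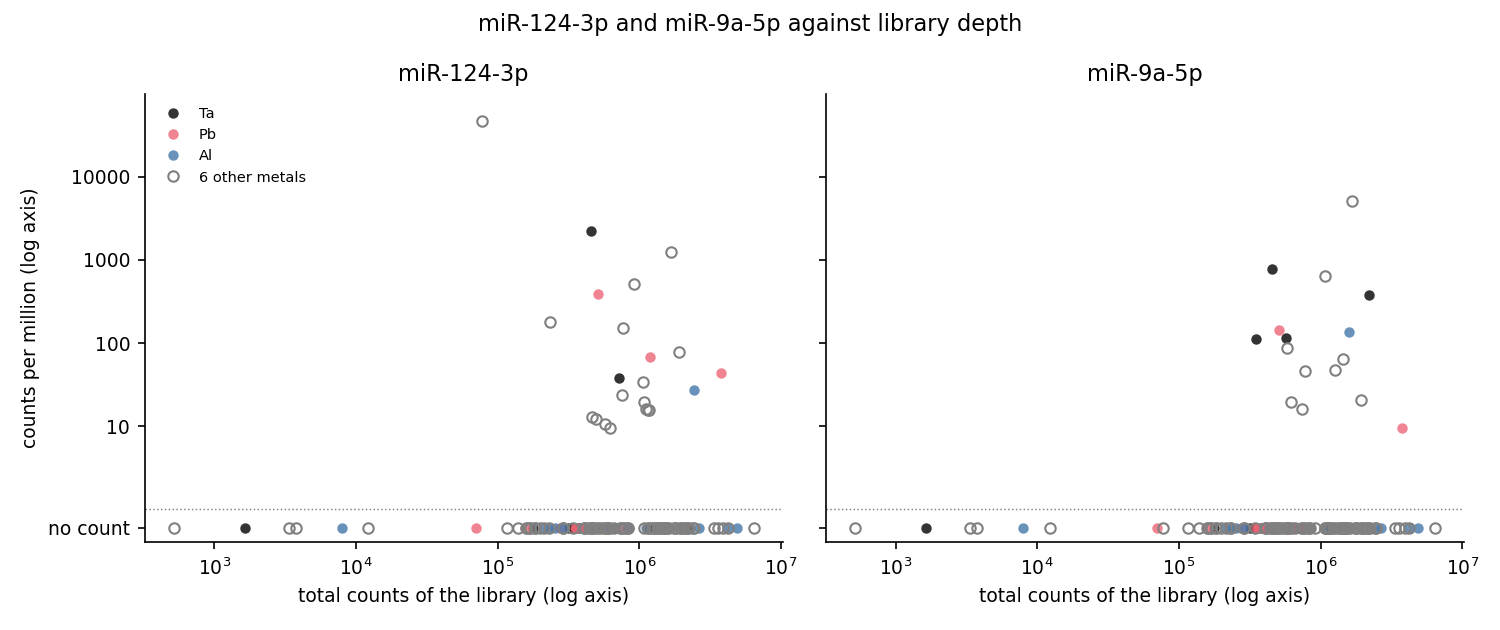
Level of miR-124-3p (left) and miR-9a-5p (right) in CPM (log axis) against the total counts of each library (log axis), with libraries without a count on the bottom line. Ta, Pb and Al libraries are filled; the highest points are Fe replicate 3 at 3 mo (46141 CPM) on the left and Ni replicate 1 at 6 mo (5101 CPM) on the right.

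No member had a share of libraries with a count that passed the test between a metal and Ta (Fisher's exact test, two-sided, adjusted p = 1 for each). For Pb the raw p was 1 for miR-124-3p, 0.394 for miR-9a-5p and 0.600 for miR-128-3p (13 of 16 against 14 of 15 libraries). For Ni the shares were 5 of 12 against 2 of 11 Ta libraries of the same months, for both miR-124-3p and miR-9a-5p (Fisher's exact test, raw p = 0.371). The smallest raw p of the members was 0.0434 (Fisher's exact test), for miR-9a-5p in Fe and in DU. Each had it in 0 of 16 libraries, against 4 of 15 in Ta. Over all 471 miRNAs 0.0% were called for each metal. As deeper libraries can hold more rare miRNAs, depth was compared: libraries with miR-124-3p had a median of 845629.5 counts against 630160.5 in those without, and libraries with miR-9a-5p 926620 against 648606. The part of depth was not tested beyond an expected share at 70000 counts, which for miR-124-3p was 18.4% of Pb, 5.7% of Al and 13.8% of Ta libraries on the counts as deposited, and 15.3%, 3.16% and 11.4% on counts divided by 3. For miR-9a-5p it was 9.33% of Pb, 6.67% of Al and 28.6% of Ta libraries as deposited, and 7.34%, 6.4% and 27.8% on divided counts.

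At the time points where the filter on low counts kept them, 1 and 6 mo, miR-124-3p and miR-9a-5p were tested in edgeR without a call. The smallest p was 0.00201, for miR-124-3p in DU at 1 mo (adjusted p = 0.181), where DU had no count and all counts of Ta lay in replicate 3. For miR-9a-5p it was 0.00282, for Ni against Ta at 6 mo (adjusted p = 0.739). At 6 mo Ni gave 3 of the 4 libraries with miR-9a-5p and 3 of the 4 with miR-124-3p. Both rows thus passed the filter at 6 mo through Ni, so the p of Ni there lends no support to a difference. At 3 and 12 mo the filter left both out. Fitted log2 values are not given for these rows, because most groups consist of zeros.

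The rare members shared some of their libraries. miR-124-3p, present in 15.9% of all libraries, and miR-9a-5p, present in 11.6%, shared 7 of them, 31.8% of those with the former and 43.8% of those with the latter. miR-124-3p shared 9 libraries with miR-9a-3p (40.9% and 50.0%), with equal counts in 4 of them. The 2 strands of miR-9a shared 3 libraries, 18.8% of those with miR-9a-5p and 16.7% of those with miR-9a-3p, which was present in 13.0% of all libraries. These overlaps were not tested. miR-9a-3p had a count in 18 libraries, up to 501 CPM in Co replicate 4 at 12 mo. In Pb it was at 12.0 CPM (replicate 1 at 1 mo) and 12.8 CPM (replicate 2 at 12 mo), and in Al at 277 CPM (replicate 2 at 6 mo), 76.3 CPM (replicate 2 at 12 mo) and 34.4 CPM (replicate 4 at 3 mo).

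The passenger strands of miR-128 were rare although miR-128-3p was abundant. miR-128-1-5p, from the R3hdm1 locus, had 691 counts in 14 libraries, and miR-128-2-5p, from the Arpp21 locus, 40 counts in 4 libraries; no library held both. In Al replicate 4 at 6 mo, miR-128-1-5p reached 117 CPM beside 9246 CPM of miR-128-3p. In Pb it was seen in replicate 1 at 1 mo, at 7.48 CPM beside 13066 CPM. At 6 mo none of the 4 Pb libraries held a passenger strand, neither replicate 1 with miR-128-3p nor replicates 2, 3 and 4 without it. miR-9b is not among the counted miRNAs.

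Over the 132 libraries of 20000 counts or more, the level of miR-128-3p ran most like that of miR-92a-3p, a member of the miR-17-92 family that is abundant in red cells (Spearman's rho 0.613 among 114 candidates, whose median rho was 0.05). The next were miR-142-5p of blood-forming cells (0.499), miR-328a-3p (0.493), miR-181d-5p (0.492) and miR-28-3p (0.426). For miR-92a-3p the value within months was 0.828, 0.110, 0.792 and 0.483 at 1, 3, 6 and 12 mo, lowest at 3 mo. For miR-328a-3p and miR-28-3p it was also lowest at 3 mo (0.293 and 0.108). For miR-142-5p it was lowest at 1 mo (0.336) and for miR-181d-5p at 12 mo (0.315). miR-128-3p also ran with the library total (0.338), which these libraries share between all their miRNAs. In the Pb group at 6 mo miR-92a-3p held 16366 CPM in replicate 1 and 3958, 601 and 0 CPM in replicates 2, 3 and 4, against 8421, 13536 and 21721 CPM in Ta. miR-142-5p, in contrast, held 3419, 5246, 1343 and 1533 CPM in Pb, near the 3537, 1878 and 4223 CPM of Ta. miR-328a-3p held 364 CPM in Pb replicate 1 and 0 CPM in replicates 2, 3 and 4, against 124, 126 and 128 CPM in Ta. miR-181d-5p held 386, 0, 0 and 493 CPM in Pb and 190, 264 and 176 CPM in Ta. miR-28-3p held 1289, 2741, 333 and 1508 CPM in Pb and 1255, 1002 and 2700 CPM in Ta. For miR-124-3p, at 0 in most libraries, no value exceeded 0.334 (miR-140-3p).

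A wider list of 43 brain and neuron miRNAs placed the members in context; 36 are in the table, and 23 of these had a count in fewer than 20 libraries. Only 5 were detected in at least 69 of the libraries: miR-128-3p in 128, miR-7a-5p in 97, miR-338-5p in 93, miR-330-3p in 89 and miR-383-5p in 85. miR-7a-5p, which is also made in endocrine cells, had a median of 158 CPM where detected, and miR-338-5p 57.0, miR-330-3p 61.4 and miR-383-5p 55.3 CPM. miR-128-3p thus stood far above the rest of the list. miR-132-3p, induced by neuronal activity, was found in 18 libraries, miR-138-5p in 19, and miR-137-3p in 1. No miRNA of the list was called in a comparison of a metal with Ta.

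**Figure D5:**
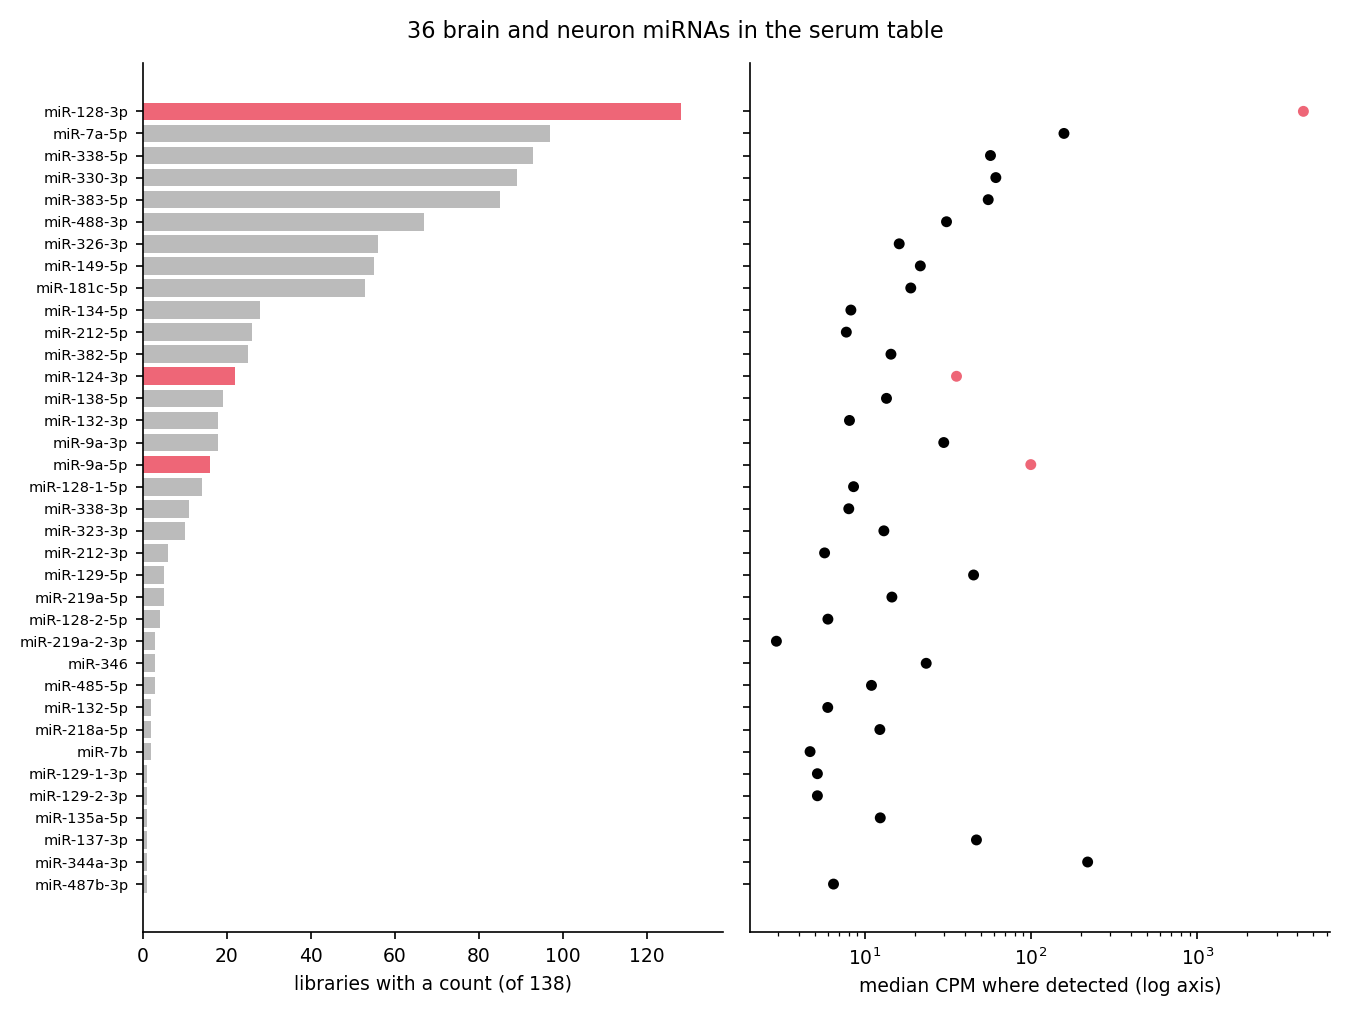
The 36 miRNAs of the brain and neuron list that are in the table: number of libraries with a count (left, bars) and median level where detected in CPM (right, points, log axis), with the 3 members in red. miR-128-3p leads with 128 libraries and 4353 CPM, whereas miR-124-3p and miR-9a-5p have 22 and 16 libraries.

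Of the list, 7 were called in some comparison, nearly all between months. For 3 against 1 mo, 6 of 20 tested fell in edgeR, where 43.8% of all miRNAs were called: miR-149-5p by 6.01, miR-181c-5p by 4.33, miR-326-3p by 4.08, miR-330-3p by 4.05, miR-7a-5p by 2.29 and miR-383-5p by 1.88 on the log2 scale. The 3 mo libraries were also shallower, with medians of 286094 counts and 99.5 miRNAs against 1114449 and 216 at 1 mo. The part of depth in these falls was not tested. miR-149-5p was higher at 12 than at 6 mo (log2 difference 2.74 ± 0.79 SE, edgeR adjusted p = 0.0140), and miR-488-3p was higher at 12 than at 1 mo (2.79 ± 0.90 SE, adjusted p = 0.0279). The difference of miR-330-3p between Pb and Ta changed with time (edgeR adjusted p = 0.0117). In CPM pooled over groups, the median log2 ratio of Pb to Ta over the list was 1.24, -0.26, -2.35 and 0.44 at 1, 3, 6 and 12 mo, beside -0.32, -0.59, -0.47 and 0.01 over all miRNAs tested. For Al it was 0.36, -0.69, -1.10 and -0.77, beside -0.17, -0.61, -0.59 and -0.27. These medians cover the listed miRNAs that passed the filter and had more than 3 counts, pooled over the group, in at least 1 of the groups. That left 15, 6, 15 and 11 miRNAs for Al and 17, 6, 12 and 11 for Pb. A miRNA under 3 counts in 1 of the groups was set to 3 counts there, so its ratio rests on that limit. Other lists also stood lower in Pb than in Ta at 6 mo: the median summed level was 226 against 1290 CPM for skeletal muscle (6 miRNAs), 202 against 1609 CPM for pancreatic islet and endocrine cells (5) and 151867 against 358837 CPM for platelets and leukocytes (7), beside 1418 against 7954 CPM for the brain and neuron list. Most of the brain and neuron sum in Ta was miR-128-3p, at 6858 to 7585 CPM beside 7445 to 8093 CPM for the whole list. The lower sum of that list in Pb thus largely repeats the zeros of miR-128-3p. The liver list (142530 against 116948 CPM) and the red cell list (8958 against 7967 CPM) did not stand lower. The libraries of both groups overlapped in each of these lists, and the part of such shifts in the brain list was not tested.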

How the data were processed

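The authors deposited raw counts of mature miRNAs per serum library as 1 table (471 miRNAs by 138 libraries), in which each column name matched 1 sample title. Per the labels' protocols, total RNA was isolated from serum, checked on a Bioanalyzer, made into libraries with a Norgen small RNA kit and sequenced (NextSeq). Per the submitters' processing notes the genome build was Rnor_6.0. For alignment and counting, no tool is named (not given in the sources used here).

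From these counts, CPM is a count per 1000000 counts of its library, with no further scaling. Tests used edgeR 4.0.16 in R 4.3.3 (TMM factors, filterByExpr with minimum count 10 and minimum total 15, quasi-likelihood F test, 1 mean per metal and month). They were fitted on all miRNAs of the libraries of a month, or on all 138 libraries for averages and time comparisons, and adjusted within a comparison by Benjamini-Hochberg, with calls at an adjusted p under 0.05. Detection was compared over libraries with Fisher's exact test. Intervals are exact (Clopper-Pearson, 95%); a count of 0 allows 3 counting events. Depth ran from 518 to 6406599 counts.

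The members and lists were chosen with earlier results of these data known. Named are all rows present of miR-124, miR-9a, miR-9b and miR-128, of which miR-9b had none. Also named are list miRNAs called in any comparison, the 4 of the list with the highest median CPM, and the 5 miRNAs with the highest Spearman's rho (log2 CPM, prior count 2, candidates in at least 100 libraries). miR-132-3p, miR-137-3p and miR-138-5p were named after their values were seen. Alternatives were DESeq2 1.42.0, its size factors, no filter, a replicate block, leaving out the near-empty libraries or each library, only the groups compared, each metal left out of the time comparisons, and, added after seeing the data, counts divided by a row's common divisor and an additive model of metal and time. Same-numbered libraries deviated together in every pair only for Pb and Al against Ta at 3 mo. The labels tie no number to a rat or batch. The fits were also run on simulated data, where many of the changes put in were not called.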

Additional observations from a re-analysis of the deposited data

Results flagged for a closer look

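In groups of 4 libraries, a library was marked where its gap to the nearest other library took up nearly the whole range of its group. Chance marks about 1 in 20 groups of evenly spread values, but a group in which 1 library has a count and the others have none is always marked. For miR-128-3p, 3 of the 33 groups with a spread were marked. Pb replicate 1 at 6 mo held 13730 CPM and the 3 others 0. Ni replicate 3 at 3 mo, a near-empty library of 3343 counts, held 0 CPM beside 6646 to 7953 CPM. DU replicate 2 at 1 mo held 566 CPM in 486142 counts, beside 6065 to 6214 CPM.

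For miR-124-3p 12 of 15 groups were marked, in 10 of which the other libraries had no count. The marked values were 46141 CPM (Fe replicate 3 at 3 mo), 2224 (Ta replicate 3 at 1 mo), 384 (Pb replicate 4 at 12 mo), 181 (Cu replicate 3 at 12 mo), 27.1 (Al replicate 4 at 1 mo), 19.5 (DU replicate 1 at 12 mo), 16.2 (Co replicate 4 at 12 mo), 15.5 and 10.5 (Ni replicate 1 at 1 and 3 mo) and 9.63 CPM (Cu replicate 3 at 1 mo). The other groups were Ni at 6 mo, with 1255 CPM in replicate 1 and at most 152 CPM beside it, and W at 1 mo, with 519 CPM in replicate 1 and at most 33.7 CPM beside it.

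For miR-9a-5p 12 of 13 groups were marked, in 11 of which the other libraries had no count. Ta was marked at 776 CPM (replicate 3 at 1 mo) and 381 CPM (replicate 4 at 3 mo), Pb at 142 CPM (replicate 4 at 12 mo) and 9.62 CPM (replicate 1 at 1 mo), and Al at 134 CPM (replicate 2 at 6 mo). Ni was marked at 638 CPM (replicate 2 at 3 mo), 88.3 CPM (replicate 2 at 1 mo) and 5101 CPM (replicate 1 at 6 mo, with at most 47.1 CPM beside it). W replicate 3 at 1 mo held 64.2 CPM, Co replicate 3 at 1 mo 20.4 CPM, and Cu 19.3 CPM (replicate 3 at 1 mo) and 16.2 CPM (replicate 1 at 12 mo).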

How the results depend on the processing

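The members' 0 calls in edgeR remained 0 in 297 of 308 alternative counts. Without the low-count filter 1 test was called for Pb at a time point, 2 for Al, 9 for the other metals and 8 of changes with time, all of miR-124-3p or miR-9a-5p; at 1 mo all Ta counts of both lie in replicate 3. These include miR-124-3p at 1 mo in Pb (adjusted p = 0.0344) and Al (adjusted p = 0.00103) and miR-9a-5p in Al (adjusted p = 0.000452), each lower than Ta. The additive model called 1 average for Pb (miR-9a-5p, lower than Ta, adjusted p = 0.0440), 1 for Al (miR-124-3p, lower, adjusted p = 0.0232) and 8 for the other metals, and DESeq2 called 1 (miR-9a-5p in DU). Leaving DU out of the time comparisons gave 2 calls of miR-124-3p, lower at 3 and at 12 than at 1 mo. Leaving out 1 library gave 0 to 1 calls for Pb at a time point and 0 to 1 in its average, in both cases miR-128-3p without Pb replicate 1 at 6 mo (average -3.26, adjusted p = 0.000780, in a fit that called 1.26% of miRNAs), and 0 calls in Al and the other metals; the averages of the other metals were run only without each Ta library, and no single library was left out of the tests of change with time and between months. Adding the replicate block gave 0 calls in each family. Same-numbered libraries did not deviate together in every pair of a comparison (r -0.29 to 0.55 over 116 pairs, median 0.03) except in 2 of 31 comparisons, Pb (0.17 to 0.25) and Al (0.19 to 0.54) against Ta at 3 mo, where all 4 pairs were above 0.1; there the replicate block gave miR-128-3p differences of 0.26 in Pb and 0.59 in Al, with no call.

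Of 396 alternative values for single members, 338 kept direction and side of the threshold, 50 changed direction from values that had not been called, 4 became called and 4 shares moved. The cause of each change was not tested. For miR-128-3p in Pb against Ta at 3 mo (main -0.10) the log2 difference was 0.50 with DESeq2 size factors, 0.23 without the filter, 0.47 with DESeq2, 0.26 with the replicate block, 0.10 with divided counts and 0.20 with only both groups fitted. For the Al average (main -0.02) it was 0.061 with DESeq2 size factors, 0.059 without the filter, 0.060 with DESeq2, 0.028 without near-empty libraries and 0.075 with divided counts. For 3 against 1 mo (main -0.18) it was 0.33 with DESeq2 size factors, 0.33 with DESeq2 and 0.56 in Ta alone. For 6 against 3 mo (main 0.09) it was -0.18 with DESeq2 size factors, -0.18 with DESeq2, -0.059 without near-empty libraries, -0.029 without Ta and -0.10 without Cu. For 12 against 6 mo (main 0.37) it was -1.04 in Ta alone. Leaving out 1 library in turn moved miR-128-3p in Pb from 0.68 to 2.02 at 1 mo, from -0.26 to 0.81 at 3 mo, from -16.46 (a fit to zeros, no bound) to -0.86 at 6 mo, and from -3.26 to 0.50 in the average; at 12 mo it ran from 0.39 to 1.58. In Al it ran from -0.23 to 1.15 at 1 mo, from -0.069 to 1.00 at 3 mo, from -1.66 to 0.20 at 6 mo, from -0.50 to 0.18 at 12 mo and from -0.26 to 0.21 in the average. At 70000 counts the expected share of libraries with miR-128-3p was 100% in Ta and 100% in Al, against 93.3% and 93.8% observed, since near-empty libraries are then left out. Depth limits the rare members most: a library of 156881 counts with no count still allows up to 19.1 CPM of miR-128-3p and 3 times that level of miR-124-3p.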
